A study of Homo sapiens with 12 samples.

Results

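Receptor tyrosine kinases are single-pass membrane proteins that bind a ligand outside the cell, pair up and phosphorylate each other on tyrosines, which recruits adaptors that feed the RAS, PI3 kinase and phospholipase C gamma pathways. Normal B cells signal mainly through the B-cell receptor and cytokine receptors. Hodgkin and Reed-Sternberg cells, the malignant cells of classical Hodgkin lymphoma (cHL), derive from B cells that have lost most of the B-cell programme, and receptor tyrosine kinases of other tissues have been described in them. The genes followed here were PDGFRA, DDR1, DDR2, EPHB1, MST1R, MET, AXL and FGFR1, which were listed by symbol as receptor tyrosine kinases reported in cHL and their relatives. All 8 had a row in the table of 26210 genes, and 7 of the 8 passed the filter on low values, with AXL falling below it.

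RNA-seq was performed in duplicate in 6 groups, giving 12 libraries, to set the transcriptome of cHL cell lines against that of other B-lineage lines. KM-H2, L1236 and L428 are established cHL cell lines grown in IMDM. Namalwa, a Burkitt lymphoma line, and Reh, a pro-B lymphoblastic leukaemia line, were grown in RPMI and are called the B-cell controls. In the sixth group, Reh cells received the phorbol ester PMA, which activates protein kinase C, at 2 ng/ml for a time that the labels do not give, and the other 5 groups were untreated. Each group is 1 cell line, so a difference between cHL and control lines is a difference between 3 lines and 2 lines grown in different media. Levels are FPKM, that is, fragments per kilobase of transcript, normalised for the number of mapped fragments, and can be compared between genes because they are per length. The 2 libraries of a group are named 0 and 1 as in the table. The number of reads behind a value is not known, and a gene listed at 0 may be a failed estimate, since RPL21, which every cell transcribes, was listed at 0 in L428 library 1.

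The labels of the lines were checked against marker genes. The cHL lines transcribed TNFRSF8, which encodes CD30, at 19.1 to 63.7 FPKM, whereas the controls stood at 0.0298 to 0.505. CD79B, a chain of the B-cell receptor complex, was at 0.592 FPKM or below in the 6 cHL libraries and at 394 to 889 FPKM in the 4 untreated control libraries. The sum over 8 B-cell markers was 2.55 to 37.3 FPKM in the cHL libraries and 982 to 1420 FPKM in the untreated controls. Some markers went against this: PAX5 was at 33.8 and 19.8 FPKM in L1236, and CCL22, a chemokine of Hodgkin cells, was listed at 0 in both KM-H2 libraries. IRF4 (23.7 and 29.0 FPKM in Namalwa) and FSCN1 (15.3 and 14.4 FPKM in Reh), both Hodgkin markers, were present in a control. Of 6 B-precursor markers, 5 reached a mean of 1 FPKM in Reh and 4 in Namalwa. Their sums were 1342 and 1220 FPKM in Reh against 136 and 128 FPKM in Namalwa. Among them, VPREB1 was at 11.4 and 7.89 FPKM in Namalwa and listed at 0 in Reh. Of 6 germinal centre markers, 6 reached that mean in Namalwa and 5 in Reh. Of 6 epithelial markers, EPCAM was at 0.107 FPKM or below in all 12 libraries, and the summed level of the 6 was at most 2.65 FPKM in any library. Of 8 fibroblast markers, COL1A2 and DCN were at 0.0889 FPKM or below in all 12, although L1236 held FAP (8.86 and 7.24 FPKM) and COL3A1 (3.51 and 4.69 FPKM) and PMA-treated Reh held PDGFRB (41.5 and 32.3 FPKM). KM-H2 also transcribed the T-cell genes CD4 (54.5 and 46.0 FPKM), CD3D (13.5 and 22.5 FPKM), CD3G (3.25 and 2.85 FPKM) and, at 0.779 and 1.01 FPKM, CD2, although CD3E was at 0.197 FPKM and listed at 0 and CD8A was listed at 0 in both libraries. Of 6 myeloid markers, CD14 (5.79 and 4.56 FPKM) and ITGAM (9.14 and 4.24 FPKM) were present in KM-H2, whereas MPO and CD163 were listed at 0 and LYZ and FCGR1A were at 0.591 FPKM or below. Of 6 endothelial markers, PECAM1 was at 32.0 and 17.5 FPKM in L1236 and the other 5 were at 0.232 FPKM or below. The part of other cell types in the values below was not tested.

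Some libraries stood apart. L1236 library 1, L428 library 1 and both PMA-treated Reh libraries had 0.817 to 4.26 FPKM of PLCG2, the phospholipase C gamma of B cells, against 298 to 404 in the other 8. The same 4 had a lower median over 76 ribosomal protein genes, 340 to 818 FPKM against 1360 to 2374. RPL21 followed the same split, at 0.0474 FPKM or below in these 4 and at 131 to 2151 FPKM in the other 8. This split follows no label, and within Reh it cannot be told apart from the PMA treatment. Results of the 8 genes against the controls that include L1236 or L428 are therefore given with and without their low library where the call changed. A repeat without both low libraries was not made for differences between lines and is not given for other genes.

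To show what lies upstream of the 5 genes that passed the filter only through cHL libraries, RefSeq promoter sequences (250 bases before to 50 bases after a start site, GRCh38.p14) are printed for MET, EPHB1 and MST1R, and for the most upstream start of DDR2 and of PDGFRA. Capitals mark matches, on either strand, to an AP-1 site (TGANTCA), an NF-kB site, a GC box (GGGCGG) or a TATA box (TATAAA), and no RUNX site (TGTGGT) was found in these 5.
MET promoter, chr7:116671946-116672245, plus strand: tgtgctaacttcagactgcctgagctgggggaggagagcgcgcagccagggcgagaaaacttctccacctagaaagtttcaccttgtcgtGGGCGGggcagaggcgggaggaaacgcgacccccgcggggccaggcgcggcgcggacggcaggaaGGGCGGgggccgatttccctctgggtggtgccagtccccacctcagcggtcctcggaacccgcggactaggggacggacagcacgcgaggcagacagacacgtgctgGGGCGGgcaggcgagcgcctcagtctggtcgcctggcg
EPHB1 promoter, chr3:134795010-134795309, plus strand: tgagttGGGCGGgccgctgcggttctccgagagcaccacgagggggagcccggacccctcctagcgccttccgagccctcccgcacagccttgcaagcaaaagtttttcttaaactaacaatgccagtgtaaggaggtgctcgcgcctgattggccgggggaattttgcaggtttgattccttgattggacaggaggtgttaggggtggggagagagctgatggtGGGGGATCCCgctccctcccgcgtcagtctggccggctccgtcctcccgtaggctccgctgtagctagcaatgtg
MST1R promoter, chr3:49903824-49904123, minus strand: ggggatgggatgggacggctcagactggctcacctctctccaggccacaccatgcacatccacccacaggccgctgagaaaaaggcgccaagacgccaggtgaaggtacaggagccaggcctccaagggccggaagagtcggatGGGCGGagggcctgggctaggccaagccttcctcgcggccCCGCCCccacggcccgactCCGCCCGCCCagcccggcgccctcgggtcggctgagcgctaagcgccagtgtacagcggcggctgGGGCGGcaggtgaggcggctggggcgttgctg
DDR2 promoter, chr1:162630613-162630912, plus strand: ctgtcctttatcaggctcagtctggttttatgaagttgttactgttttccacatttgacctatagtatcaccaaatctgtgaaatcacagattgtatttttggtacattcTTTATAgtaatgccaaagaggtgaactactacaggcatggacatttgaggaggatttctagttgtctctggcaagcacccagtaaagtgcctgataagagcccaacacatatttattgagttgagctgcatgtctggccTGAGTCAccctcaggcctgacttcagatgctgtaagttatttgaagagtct
PDGFRA promoter, chr4:54229043-54229342, plus strand: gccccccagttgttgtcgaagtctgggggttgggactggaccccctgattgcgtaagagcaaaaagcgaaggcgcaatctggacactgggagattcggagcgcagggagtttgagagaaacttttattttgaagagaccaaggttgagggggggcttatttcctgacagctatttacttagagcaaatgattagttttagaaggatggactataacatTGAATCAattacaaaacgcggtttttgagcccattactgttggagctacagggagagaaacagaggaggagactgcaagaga
The MET window held 30 CpG dinucleotides and 3 GC boxes, and the MST1R window 25 CpG and 5 GC boxes. The EPHB1 window held 19 CpG, 1 GC box and 1 NF-kB site. The DDR2 window held no CpG, 1 AP-1 site and 1 TATA box, and the PDGFRA window 8 CpG and 1 AP-1 site. Other RefSeq starts of these genes differed: a downstream PDGFRA window held 32 CpG, 2 GC boxes and no AP-1 site, and neither of the other two DDR2 windows held an AP-1 site. Over all 34943 promoters of this length the median was 14 CpG, and 44.9% held a GC box, 7.72% an AP-1 site, 9.07% an NF-kB site, 11.6% a TATA box and 13.1% a RUNX site. Which start site each line used was not measured here, and a match of letters is not evidence of binding.

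MET, the receptor for hepatocyte growth factor, was transcribed in all 3 cHL lines and was near 0 in every control. The gene lies at chr7:116312250-116438431 on the plus strand (hg19). It stood at 18.2 and 11.4 FPKM in KM-H2, at 11.6 and 15.7 FPKM in L1236 and at 61.3 and 67.6 FPKM in L428. In Namalwa it was at 0.0157 FPKM and listed at 0, in Reh at 0.205 and 0.144 FPKM, and in PMA-treated Reh at 0.371 and 0.511 FPKM. No cHL library overlapped a control library, and both L428 libraries lay above all others. In limma, the log2(FPKM + 1) level of MET was higher by 4.49 ± 0.16 (SE, adjusted p = 8.35e-08) in the cHL lines than in the B-cell controls. L428 exceeded KM-H2, the next line, by 2.08 ± 0.25 (adjusted p = 0.000174), while KM-H2 and L1236 differed by 0.09 ± 0.25 (adjusted p = 0.821). MET was the most abundant of 58 receptor tyrosine kinases in L428, at 64.4 ± 4.51 FPKM (SD, n = 2), and lay above 89.7% of the 11797 genes with at least 1 FPKM in that line.

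DDR2, a receptor for fibrillar collagens best known from fibroblasts and other mesenchymal cells, was likewise transcribed in all 3 cHL lines and near 0 in every control. It lies at chr1:162601163-162757195 on the plus strand (hg19). DDR2 was at 15.8 and 13.9 FPKM in KM-H2, at 14.4 and 19.2 FPKM in L1236 and at 3.38 and 2.83 FPKM in L428. The 6 libraries of Namalwa, Reh and PMA-treated Reh ranged from a listed 0 to 0.266 FPKM, so the cHL and other libraries did not overlap. The cHL lines were higher by 3.28 ± 0.13 on the log2 scale (adjusted p = 1.13e-07). The order among them was opposite to that of MET: L428 was the lowest, 1.95 ± 0.20 below KM-H2 (adjusted p = 6.46e-05), and still 1.75 ± 0.20 above PMA-treated Reh (adjusted p = 8.41e-05). L1236 and KM-H2 overlapped and differed by 0.16 ± 0.20 (adjusted p = 0.589).

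EPHB1 and MST1R shared a pattern, with transcripts in L1236 and L428 and little in KM-H2. EPHB1, a receptor for membrane-bound B-class ephrins that guides axons and cell positioning, lies at chr3:134514102-134979309 on the plus strand (hg19). It stood at 25.2 and 11.2 FPKM in L1236 and at 16.4 and 9.72 FPKM in L428, against 0.0587 and 0.388 FPKM in KM-H2. In both L1236 and L428 the library low in PLCG2 held the lower EPHB1 value, yet that value was far above every library of the other 4 groups. EPHB1 was listed at 0 in both Namalwa libraries and was at 0.0226 to 0.0543 FPKM in the 4 Reh libraries. L428 exceeded KM-H2 by 3.50 ± 0.35 on the log2 scale (adjusted p = 6.46e-05), and KM-H2 did not pass the test against the controls (0.26 ± 0.30, adjusted p = 0.517). L1236 and L428 overlapped and differed by 0.38 ± 0.35 (adjusted p = 0.478).

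MST1R encodes RON, the receptor for macrophage-stimulating protein and the closest relative of MET. It lies at chr3:49924435-49941306 on the minus strand (hg19). Its level was 5.89 and 6.33 FPKM in L1236 and 4.89 and 3.91 FPKM in L428. KM-H2 was listed at 0 and at 0.470 FPKM, below Reh at 0.733 and 0.533 FPKM, and Namalwa was listed at 0 in both libraries. MST1R in L428 was 1.72 ± 0.20 above Reh on the log2 scale (adjusted p = 0.000118), and L1236 was 0.40 ± 0.20 above L428 (adjusted p = 0.17), without overlap. In KM-H2 the difference from the controls was -0.07 ± 0.17 (adjusted p = 0.762). Over the 12 libraries, the Pearson correlation of EPHB1 with MST1R was 0.969 on log2(FPKM + 1), the highest among the pairs of the 7 genes, and it is a description over libraries that share their lines.

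PDGFRA, the receptor for platelet-derived growth factor A and C chains in mesenchymal cells, was transcribed in KM-H2 and near 0 elsewhere. It lies at chr4:55095447-55164412 on the plus strand (hg19). KM-H2 stood at 15.1 and 11.7 FPKM, and the other 10 libraries ranged from a listed 0 to 0.0580 FPKM. The difference of KM-H2 from the controls was 3.83 ± 0.12 on the log2 scale (adjusted p = 5.15e-08), whereas L1236 (0.02 ± 0.12, adjusted p = 0.91) and L428 (0.05 ± 0.12, adjusted p = 0.772) did not pass. PDGFRA was therefore called in the mean of the 3 cHL lines (1.30 ± 0.09, adjusted p = 3.01e-06) on account of 1 line, and without KM-H2 that difference was 0.04 (adjusted p = 0.781).

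DDR1, the collagen receptor of epithelial cells, was present at low to moderate levels in all groups. It lies at chr6:30844198-30867933 on the plus strand (hg19), where 90 of its exonic bases are shared with the same-strand miRNA gene MIR4640, so reads there may not be separated. DDR1 was at 8.91 and 16.7 FPKM in KM-H2, at 4.55 and 4.67 FPKM in L428 and at 1.54 and 2.27 FPKM in L1236. In the controls it was at 0.997 and 0.992 FPKM in Namalwa and at 2.13 and 2.26 FPKM in Reh. L1236 thus overlapped Reh, while KM-H2 and L428 lay above both controls. The cHL lines were higher by 1.24 ± 0.18 on the log2 scale (adjusted p = 0.000345), and by 0.67 (adjusted p = 0.0185), under the size limit of 1 for a call, without KM-H2. KM-H2 (2.39 ± 0.24, adjusted p = 4.33e-05) and L428 (1.15 ± 0.24, adjusted p = 0.00388) passed against the controls, and L1236 did not (0.19 ± 0.24, adjusted p = 0.565). Against Reh alone, the differences were 0.81 in L428 (adjusted p = 0.0439) and 0.90 over the cHL lines (adjusted p = 0.00962), both under that size limit. In the order of levels, KM-H2 exceeded PMA-treated Reh, the next group, by 1.03 ± 0.28 (adjusted p = 0.0131), and no further neighbours were called.

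FGFR1, a receptor for fibroblast growth factors, had its highest levels in Reh with and without PMA. It lies at chr8:38257733-38326352 on the minus strand (hg19), where 138 of its exonic bases are shared with the opposite-strand gene LETM2. Whether the counting used the strand is not given in the sources used here, so reads of the 2 genes may not be separated there. FGFR1 was at 33.1 and 30.1 FPKM in Reh and at 23.0 and 36.1 FPKM in PMA-treated Reh, against 0.585 and 0.652 FPKM in Namalwa. KM-H2 followed Reh at 12.1 and 18.0 FPKM, L1236 was at 2.45 and 2.08 FPKM, and L428 was at 4.01 and 1.26 FPKM. All 6 cHL libraries lay between the 2 controls. KM-H2 was called against L428, the next group below (2.23 ± 0.37, adjusted p = 0.00146), and not against PMA-treated Reh above it (0.92 ± 0.37, adjusted p = 0.0653). The cHL mean did not pass against the control mean (-0.38 ± 0.24, adjusted p = 0.208), and the direction depended on the control: with Namalwa alone the difference was 1.78 (adjusted p = 0.00121), and with Reh alone it was -2.55 (adjusted p = 0.00012). Against both controls KM-H2 was higher (1.12 ± 0.32, adjusted p = 0.0186), and with Reh alone it was lower (-1.05, adjusted p = 0.0476). L1236 (-1.16 ± 0.32, adjusted p = 0.0166) and L428 (-1.11 ± 0.32, adjusted p = 0.0194) were lower than both controls together, and against Namalwa alone their differences were 1.01 (adjusted p = 0.0584) and 1.06 (adjusted p = 0.0473). These calls of single lines were not stable. The KM-H2 call was lost without KM-H2 library 1 (0.85, adjusted p = 0.155) or Reh library 1 (1.09, adjusted p = 0.0507), and the L1236 call without L1236 library 0 (-1.24, adjusted p = 0.0651) or 1 (-1.07, adjusted p = 0.106). The L428 call was lost without L428 library 1, low in PLCG2 (-0.54, adjusted p = 0.209), or Reh library 0 (-1.07, adjusted p = 0.0522), and at a pseudocount of 0.1 both the L1236 call (-1.02, adjusted p = 0.0722) and the L428 call (-1.01, adjusted p = 0.0726) were lost, with differences close to those above. Namalwa was below Reh by 4.33 ± 0.37 on the log2 scale (-4.33, adjusted p = 2.85e-05).

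AXL, the receptor for the vitamin K-dependent ligand GAS6, was at 0.333 FPKM or below in all 12 libraries. It lies at chr19:41725128-41767671 on the plus strand (hg19). Its level was 0.0669 and 0.309 FPKM in KM-H2 and 0.333 FPKM and a listed 0 in L428, and both L1236 libraries were listed at 0. Namalwa was at 0.0773 and 0.0878 FPKM, Reh at 0.0775 and 0.0784 FPKM, and PMA-treated Reh was listed at 0 and at 0.0155 FPKM. The cHL and control libraries overlapped. Reads of AXL, PDGFRA, EPHB1, MST1R and FGFR1 may be mixed with those of genes that share exonic bases with them and have no row in the table.

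**Figure D1:**
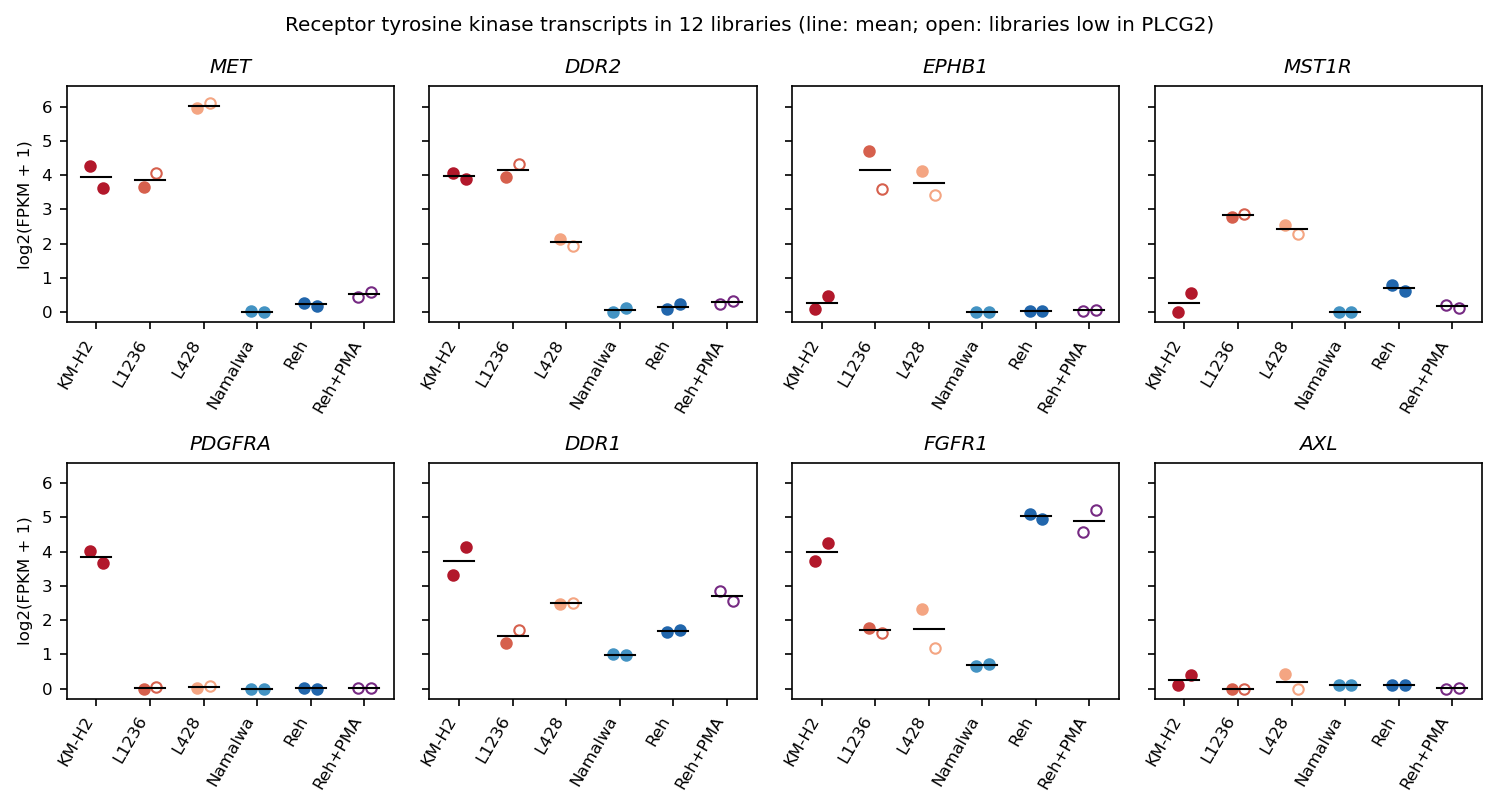
Level of the 8 genes as log2(FPKM + 1) (y axis) in the 2 libraries of each of 6 groups (x axis), with the mean as a line and open circles for the 4 libraries low in PLCG2. MET and DDR2 are above the controls in all 3 cHL lines, EPHB1 and MST1R in L1236 and L428, and PDGFRA in KM-H2 alone of these lines, whereas FGFR1 is highest in Reh with and without PMA and AXL is low in all 6 groups.

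Of the 7 genes tested, 6 were higher and 0 lower in the cHL lines than in the B-cell controls, when the libraries of a line count as its replicates. With the 5 lines as the unit, 0 of the 7 were called (MET had the smallest adjusted p, 0.107), and 80 of all 14679 genes tested were. The 6 became 5 without L1236, when MST1R fell just under the limit, and the called genes were also 5 without KM-H2, when PDGFRA and DDR1 were lost and FGFR1 was called lower. With libraries as replicates, 13.7% of the 14679 genes tested were called higher and 10.9% lower in the cHL lines than in the controls. The count of the 7 is a description and supports nothing: MET, DDR2, EPHB1, MST1R and PDGFRA passed the filter on low values only through cHL libraries, AXL was left out by it, and the genes were listed as cHL receptors. A call here is a Benjamini-Hochberg adjusted p under 0.05 in limma with a difference of at least 1 in size on log2(FPKM + 1). That limit is more than 2-fold in FPKM, above all at low levels. In KM-H2, 5 genes were higher (16.8% of all genes, with 13.5% lower). In L1236, 4 were higher and FGFR1 lower (15.7% and 13.3% of all genes), and in L428, 5 were higher and FGFR1 lower (16.2% and 13.8%). These comparisons share the control libraries. Without the L1236 and L428 libraries low in PLCG2, a repeat chosen after the data were seen, the same 6 genes were called higher in the cHL lines, from 1.18 (DDR1, adjusted p = 0.00537) to 4.40 (MET, adjusted p = 1.25e-05) on the log2 scale.

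The 3 cHL lines differed from each other in these receptors. Each of the 7 genes was called in at least 1 of the 3 pairs of lines, as were 43.6% of all genes tested. Between KM-H2 and L1236, PDGFRA, DDR1 and FGFR1 were higher and EPHB1 and MST1R lower in KM-H2, 5 of 7 genes, with 26.6% of all genes called in either direction. Between KM-H2 and L428 all 7 were called, with 26.6% of all genes called: PDGFRA, DDR1, DDR2 and FGFR1 were higher in KM-H2 and EPHB1, MST1R and MET lower. L1236 and L428 differed in 2 of 7, with DDR2 higher by 2.11 and MET lower by 2.18 (-2.18) in L1236, and 21.9% of all genes were called. When the 6 groups were ordered by level for each gene, 9 of the 35 neighbouring pairs differed, and 12 pairs that did not pass had overlapping libraries. Over the 13 pairs of groups concerned, 29.4% of the tests of all genes were called. Those genes were not ordered by their own level, so the shares are unlike measures. With the line as the unit, the mean of each of the 3 cHL lines exceeded both controls for PDGFRA, DDR2, EPHB1 and MET. The share of all genes with such an order was not counted, so these 4 genes are a description. For PDGFRA this order holds little, since L1236 and L428 were at 0.0207 and 0.0404 FPKM, Reh was at 0.00796 FPKM and the libraries of L1236 and Reh overlapped. For EPHB1, KM-H2 was above Reh at 0.223 against 0.0228 FPKM and was not called. The two-sided exact permutation test of 3 against 2 lines gave p = 0.2 for these 4 genes, the smallest p that 10 arrangements allow, so it cannot reach 0.05.

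**Figure D2:**
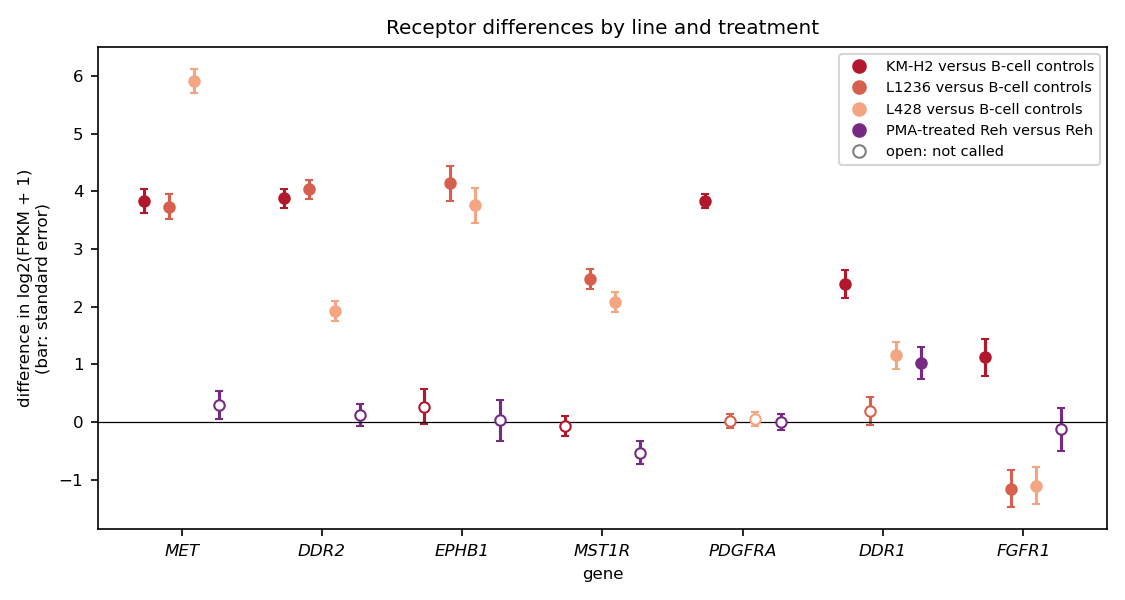
Difference in log2(FPKM + 1) of 7 receptor genes (y axis, bars give the standard error) for each cHL line against the B-cell controls and for PMA-treated against untreated Reh, with filled points for called differences. MET and DDR2 are called in 3 of 3 cHL lines, and DDR1 (1.02 ± 0.28) is the 1 gene called after PMA.

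After PMA, 1 of the 7 genes passed the test in Reh. It was DDR1, at 6.25 and 4.84 FPKM after PMA against 2.13 and 2.26 FPKM before, a log2 difference of 1.02 ± 0.28 (adjusted p = 0.0222), with 10.5% of all genes called higher and 11.8% lower. The DDR1 libraries of the treated and untreated cells did not overlap, but the call was lost without either untreated library (0.99, adjusted p = 0.109, and 1.05, adjusted p = 0.0891) or without treated library 0 (0.87, adjusted p = 0.135). Both treated libraries were low in PLCG2. In L1236 and L428, the library low in PLCG2 held 2.27 and 4.67 FPKM of DDR1 against 1.54 and 4.55 FPKM in the other library of the line. MST1R differed by -0.53 ± 0.20 (adjusted p = 0.0711), MET by 0.29 ± 0.25 (adjusted p = 0.414) and FGFR1 by -0.13 ± 0.37 (adjusted p = 0.881). The PMA response itself was present: EGR1, an immediate early gene, was at 62.1 and 76.2 FPKM after PMA against 0.138 and 0.0349 FPKM before. Between the controls, FGFR1 was the 1 gene of 7 called, with 7.5% of all genes higher and 11.5% lower in Namalwa than in Reh.

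The 8 genes made up a larger share of all receptor tyrosine kinase transcripts in the cHL lines than in the controls. Their summed FPKM was 40.1% of the sum over 58 receptor tyrosine kinases in KM-H2, 45.2% in L1236 and 64.4% in L428, against 2.14% in Namalwa, 13.7% in Reh and 9.23% in PMA-treated Reh. The 2 libraries gave 40.1% and 40.1% in KM-H2, 47.2% and 43.2% in L1236, and 65.0% and 63.8% in L428. They gave 1.91% and 2.40% in Namalwa, 13.8% and 13.6% in Reh, and 7.35% and 11.3% in PMA-treated Reh, so no cHL library overlapped the others. The number of the 8 at a mean of at least 1 FPKM was 5 in KM-H2, 6 in L1236 and 6 in L428, against 0 in Namalwa, 2 in Reh and 2 in PMA-treated Reh. This share was not tested, because the 8 genes were chosen as cHL receptors.

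The other 50 receptor tyrosine kinases moved in both directions. Of the 31 that passed the filter, 3 were higher and 8 lower in the cHL lines, where 13.7% and 10.9% of all genes were called. Among the higher were the ephrin-A receptors EPHA3 (1.26 ± 0.10, adjusted p = 6.34e-06), called in KM-H2 and L1236, and EPHA10 (1.16 ± 0.12, adjusted p = 4.74e-05), called in L1236 and L428. INSR, the insulin receptor, was lower by 4.47 on the log2 scale (-4.47 ± 0.14, adjusted p = 5.25e-08), at 0.132 FPKM or below in all cHL libraries and at 10.1 to 46.5 FPKM in the 4 control libraries. FLT3, the cytokine receptor of early progenitors, was lower (-2.77 ± 0.12, adjusted p = 2.02e-07), and it was present in Reh at 54.6 and 43.0 FPKM but listed at 0 in both Namalwa libraries. EPHB4 (-2.07 ± 0.16, adjusted p = 6.47e-06), another ephrin-B receptor, and ROR1 (-1.98 ± 0.14, adjusted p = 3.66e-06), a WNT5A receptor, were each high in 1 of the 2 controls. RYK, also a WNT receptor, was the most abundant receptor of the 58 in KM-H2 and L1236, at 31.1 and 23.6 FPKM. After PMA, 7 of the 31 were higher and 5 lower in Reh, where 10.5% and 11.8% of all genes were called. Among the higher were FLT1 (3.59 ± 0.30, adjusted p = 5.45e-05), a VEGF receptor, CSF1R (3.33 ± 0.21, adjusted p = 1.02e-05), the macrophage growth factor receptor, and PDGFRB (3.28 ± 0.16, adjusted p = 3.18e-06). None of the 8 genes moved that far in the same libraries, where PDGFRA, the relative of PDGFRB, was at 0.0101 and 0.00954 FPKM.

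**Figure D3:**
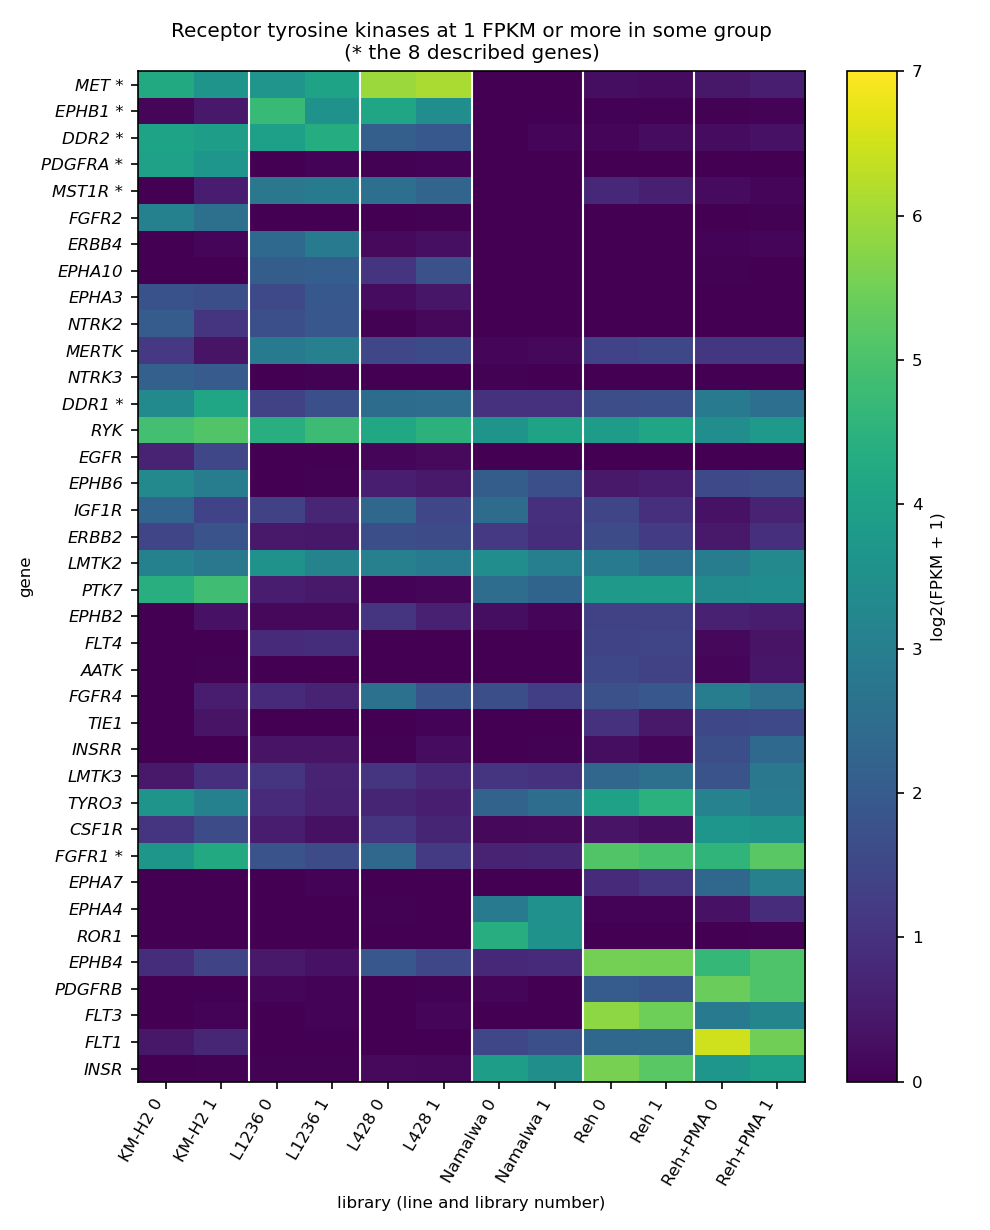
Level as log2(FPKM + 1) (colour) of 38 receptor tyrosine kinases with a mean of at least 1 FPKM in some group (rows, asterisks mark the 7 described genes among them) in 12 libraries (columns). MET, EPHB1, DDR2, PDGFRA and MST1R are bright in columns of 1 or more cHL lines and dark in the controls, and INSR, FLT3 and EPHB4 are bright in Reh and dark in the cHL lines.

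Ligands of these receptors were measured in the same libraries. Of 24 ligand genes, 18 passed the filter, and 4 were higher and 1 lower in the cHL lines (13.7% and 10.9% of all genes). HGF, the ligand of MET, was at 84.4 and 118 FPKM in KM-H2, where MET was also transcribed. In L1236, HGF was at 2.99 FPKM and listed at 0, and in L428, which had the most MET, it was listed at 0 and at 0.0668 FPKM. The HGF difference of the cHL lines from the controls was 2.31 ± 0.39 on the log2 scale (adjusted p = 0.000899), and of the 3 lines KM-H2 was called (6.40) and L1236 (0.74) and L428 (-0.21) were not. MST1, the ligand of MST1R, was at 1.38 and 2.87 FPKM in L1236, at 1.49 and 2.03 FPKM in L428 and at 0.98 and 1.44 FPKM in KM-H2.

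The PDGF chains that bind PDGFRA differed between the lines. PDGFA was at 7.83 and 9.06 FPKM in KM-H2, the line with PDGFRA, and at 8.25 and 5.54 FPKM in L1236. It was higher in the cHL lines by 1.28 ± 0.15 (adjusted p = 0.000109), although L428 at 1.42 and 0.753 FPKM lay below Reh at 3.22 and 3.87 FPKM. Namalwa was at 0.0397 and 0.0902 FPKM of PDGFA, so much of this difference came from Namalwa. PDGFC was at 3.98 and 5.12 FPKM in L1236 and at 0.0786 FPKM or listed at 0 in the other 10 libraries. PDGFD, which acts mainly on PDGFRB, was at 2.28 and 1.32 FPKM in KM-H2, overlapping Namalwa at 1.17 and 1.39 FPKM, with 0.688 and 1.19 FPKM in L428. After PMA, PDGFA in Reh was at 38.1 and 39.2 FPKM, higher by 3.13 ± 0.24 (adjusted p = 3.52e-05).

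Ephrins and collagens, the contact ligands, were also present. EFNB1 was at 11.4 and 18.8 FPKM in KM-H2, which had little EPHB1, at 3.67 to 4.31 FPKM in L1236 and L428, and at 11.8 and 17.4 FPKM in Reh. It was higher after PMA, by 1.80 ± 0.27 (adjusted p = 0.0014), at 46.1 and 59.95 FPKM. EFNB2 was at 8.59 and 5.88 FPKM in L1236 and at 0.0347 and 0.0352 FPKM in L428, below Reh at 10.3 and 11.3 FPKM. Most collagens of the list, which DDR1 or DDR2 can bind, were under 6 FPKM in all libraries: COL1A1 reached 3.67 FPKM in KM-H2 library 1, COL3A1 was at 3.51 and 4.69 FPKM in L1236, and COL4A1 was at 3.59 and 2.82 FPKM in KM-H2. COL4A2 reached 2.02 FPKM in PMA-treated Reh, where COL4A1 was higher by 1.55 ± 0.16 (adjusted p = 0.000175), and COL10A1 reached 1.73 FPKM in Reh. COL5A1 was the 1 ligand lower in the cHL lines (-1.85 ± 0.11, adjusted p = 1.42e-06), at 15.6 and 17.2 FPKM in Reh and at 0.671 FPKM or below in the cHL libraries. Namalwa was at 0.0369 and 0.0838 FPKM, within the cHL range, so this difference came from Reh, and PMA-treated Reh was at 21.5 and 25.0 FPKM.

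FGF2, a ligand of FGFR1, was at 26.3 and 5.62 FPKM in KM-H2 and at 1.73 and 2.04 FPKM in L1236. It was at 0.154 FPKM or below in the untreated controls, and the cHL lines were higher by 1.82 ± 0.33 (adjusted p = 0.00125). L428, at 0.288 and 0.551 FPKM, did not pass on its own (0.39 ± 0.44, adjusted p = 0.5). Reh, with the most FGFR1, had little of it. FGF9 was at 1.52 and 1.21 FPKM in L1236, and FGF18 was at 1.79 and 3.18 FPKM in PMA-treated Reh, higher by 1.69 ± 0.18 (adjusted p = 0.000217). GAS6 reached 2.69 and 1.61 FPKM in PMA-treated Reh. PROS1, a ligand of the AXL relatives TYRO3 and MERTK, was at 1.80 to 3.31 FPKM in the cHL lines and was higher there by 1.23 ± 0.11 (adjusted p = 1.71e-05).

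**Figure D4:**
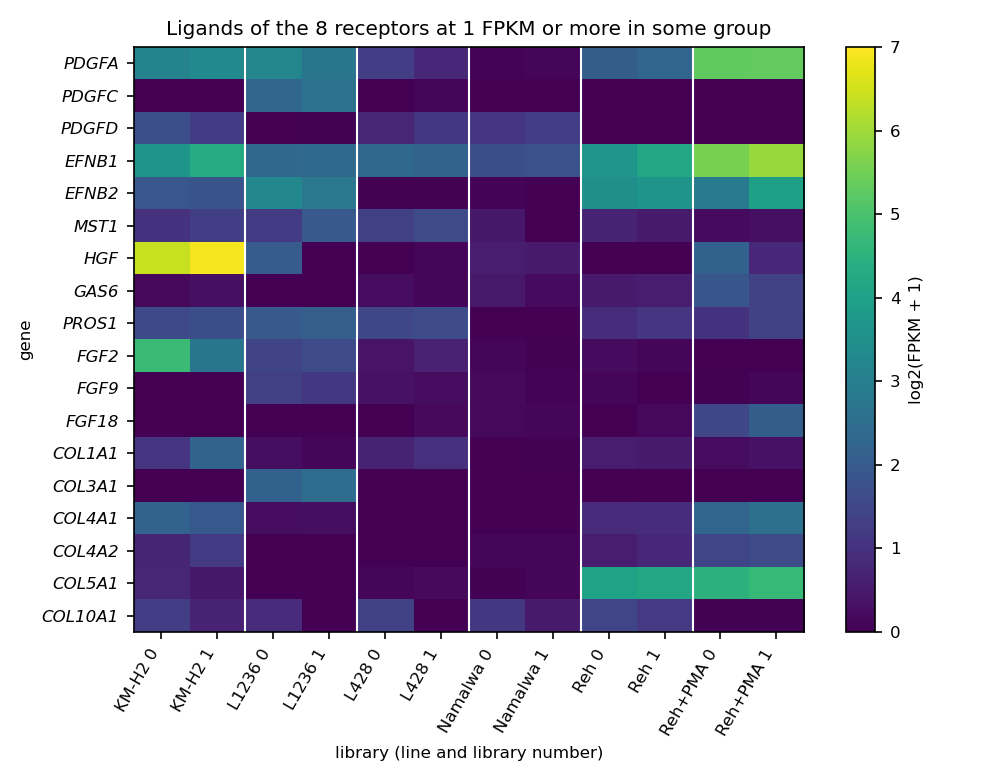
Level as log2(FPKM + 1) (colour) of the 18 ligand genes with a mean of at least 1 FPKM in some group (rows) in 12 libraries (columns). HGF and FGF2 are brightest in KM-H2, PDGFC and COL3A1 are seen in L1236, and PDGFA and EFNB1 are brightest in PMA-treated Reh.

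Among 28 adaptors and effectors downstream of the receptors, 26 passed the filter, and 2 were higher and 6 lower in the cHL lines (13.7% and 10.9% of all genes). NCK2, an adaptor that links receptors to actin, was higher (2.21 ± 0.16, adjusted p = 3.57e-06), at 40.0 to 66.7 FPKM against 7.70 to 13.3 FPKM in the controls. GAB1, the docking protein through which MET signals, was lower (-2.98 ± 0.21, adjusted p = 3.09e-06), at 0.259 to 4.73 FPKM in the cHL libraries against 13.8 to 25.5 FPKM. GRB10 (-1.67 ± 0.09, adjusted p = 6.57e-07), which binds the insulin receptor, and VAV1 (-1.42 ± 0.21, adjusted p = 0.000404), a guanine nucleotide exchange factor of blood cells, were lower too. Both of these differences came from Reh: GRB10 was listed at 0 in Namalwa, and VAV1 there, at 11.4 and 16.9 FPKM, lay within the cHL range of 4.56 to 21.8 FPKM. After PMA, 3 were higher and 2 lower (10.5% and 11.8% of all genes): GAB1 (-2.58 ± 0.32, adjusted p = 0.000528) and GAB2 (-1.86 ± 0.41, adjusted p = 0.00928) were lower and IRS2 (2.12 ± 0.36, adjusted p = 0.00253) and NCK1 (1.72 ± 0.25, adjusted p = 0.0011) were among the higher. PLCG2, the effector that set the 4 libraries apart, was at 345 and 335 FPKM in Reh and at 2.42 and 2.61 FPKM after PMA and did not pass (-6.60 ± 2.32, adjusted p = 0.0574).

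Of 15 genes that attenuate or modify receptor signals, 14 passed the filter, and 2 were higher and 3 lower in the cHL lines (13.7% and 10.9% of all genes), which for the higher genes is about the share over all genes. UBASH3B, a phosphatase that acts on tyrosine kinases and their CBL-bound receptors, was lower (-4.43 ± 0.19, adjusted p = 2.09e-07), and so was LRIG1 (-2.80 ± 0.24, adjusted p = 1.08e-05), which promotes receptor degradation. LRIG1 was at 0.691 FPKM or below in the cHL libraries and at 5.21 to 13.1 FPKM in the controls. PTPRJ (1.89 ± 0.12, adjusted p = 1.85e-06), a receptor phosphatase, and SOCS2 (1.40 ± 0.16, adjusted p = 6.33e-05), an inhibitor of cytokine signals, were higher. SOCS2 was called in KM-H2 (3.11) and not in L1236 (0.90) or L428 (0.18), which lay below Reh, and PTPRJ was not called in L428 (0.71). The controls lay far apart in SOCS2, with 0.0789 and 0.269 FPKM in Namalwa and 19.0 and 18.9 FPKM in Reh. Of the cHL lines, KM-H2 alone (38.6 and 43.0 FPKM) lay above Reh. After PMA, 5 were higher and 3 lower (10.5% and 11.8% of all genes), with ERRFI1 (3.78 ± 0.47, adjusted p = 0.000499), NRP1 (3.74 ± 0.33, adjusted p = 8.09e-05) and SH2B3 (3.07 ± 0.24, adjusted p = 4.19e-05) higher and UBASH3B lower (-2.64 ± 0.30, adjusted p = 0.000307).

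The genes whose levels followed each receptor most closely were named by Pearson correlation of log2(FPKM + 1) over the 12 libraries, as a description of libraries that share their lines. MET was followed by MSC (0.995), C9orf64 (0.994) and CDH18 (0.993), and DDR2 by HMOX1 (0.997), CLIC2 (0.991) and HMSD (0.988). EPHB1 was followed by GPHN (0.99), FAM127A (0.989) and PHKA1 (0.986), and MST1R by FN1 (0.978), NDST4 (0.978) and GAD1 (0.976). PDGFRA was followed by BAGE5, MAGEA1 and GLT1D1 (each over 0.95), and 306 genes exceeded 0.95 with it. DDR1 had 1 gene over 0.95, FAM73A (0.967), followed by ATP6AP2 (0.95) and TGFA (0.945), and FGFR1 had 4, led by EBF4 (0.957), SBK1 (0.953) and MSR1 (0.951). Over the 6 group means the leading genes were CDH18, TMEM71 and MSC for MET, HMOX1, MIR1307 and RGS14 for DDR2, IL1RL1, HES4 and ENPP3 for EPHB1, KCNMB3, GAD1 and BRD8 for MST1R, SERPINA1, IL21-AS1 and BAGE5 for PDGFRA, ANKRD24, SMC1A and ANKH for DDR1, and EBF4, MSR1 and SBK1 for FGFR1.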

How the data were processed

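Total RNA was depleted of ribosomal RNA and sequenced as strand-specific libraries, 2 per group, in 6 groups. The authors aligned reads to hg19 with TopHat2 2.0.11 and deposited 1 table of FPKM normalised with Cuffnorm 2.2.1, per the submitters' processing notes. Read counts were not used here, so depth is unknown and no counting interval is given. Column names give the line but not which labelled replicate a library is.

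FPKM values were analysed as log2(FPKM + 1) in limma 3.58.1 (R 4.3.3), with a trended variance and 1 fit of 6 groups (6 residual degrees of freedom). Genes with at least 1 FPKM in at least 2 libraries were kept (14679 of 26210), and p-values were adjusted by Benjamini-Hochberg over all of them. A pseudocount of 1 understates differences of low genes. The labels do not say that the 2 libraries of a line are separate cultures, so p-values measure the spread between libraries. The fit was tested on simulated data.

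The 8 genes and all lists were chosen with earlier results of these data known. Named from the lists were up to 4 called genes with the largest difference per comparison, every ligand reaching 1 FPKM in some group, and the 3 genes best correlated with each receptor. Others were named after their values were seen: RYK, EPHA3, EPHA10, EGR1, PLCG2 and the markers quoted. Some genes that the rule would name are not reported here. RefSeq promoters of GRCh38.p14 were taken for 7 of the 8 genes, and those of FGFR1 are not reported here. Alternatives were another pseudocount, no filter, quantile scaling, no variance trend, single controls, a block on the numbers in the column names, and leaving out lines or libraries.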

Additional observations from a re-analysis of the deposited data

Results flagged for a closer look

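Each of the 7 receptors tested differed between cHL lines by the test of the difference between lines itself (limma, log2(FPKM + 1)), where 43.6% of all genes were called in at least 1 pair of lines, 26.6% between KM-H2 and L1236 and 21.9% between L1236 and L428. These differences use the same control libraries on both sides, so they are differences between the lines. KM-H2 minus L1236 was 3.81 for PDGFRA (adjusted p = 1.25e-07), 2.28 for FGFR1 (adjusted p = 0.00123) and 2.201 for DDR1 (adjusted p = 0.000254). In the opposite direction it was -3.88 for EPHB1 (adjusted p = 2.85e-05) and -2.55 for MST1R (adjusted p = 1.17e-05). L1236 minus L428 was 2.11 for DDR2 (adjusted p = 4.82e-05) and -2.18 for MET (adjusted p = 0.000163). In L1236 and L428, 1 of the 2 libraries was low in PLCG2, and its part in these differences was not tested.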

How the results depend on the processing

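The columns of each group carry the numbers 0 and 1, which no label ties to a replicate. A replicate block on these numbers, chosen after seeing the data, changed no call of a receptor in the 6 comparisons, with 6 receptors and 3643 genes called in cHL lines against controls and 9 called differences between neighbouring groups (6, 3614 and 9 in the report). Differences between the libraries numbered 1 and 0 correlated between groups at -0.045 to 0.68 across genes, over 0.1 in 6 of 15 pairs of groups. The highest were 0.68 (L1236 and L428), 0.43 (KM-H2 and L1236), 0.36 (Namalwa and Reh) and 0.30 (KM-H2 and L428). What lies behind these correlations within the cHL lines and within the controls was not tested. Without a label, the numbers were not taken to pair the libraries. Of the values of single receptors recomputed under the alternatives, 799 kept their direction and their side of the threshold, 24 were weaker, 4 stronger and 13 changed direction. Quantile scaling shifted the median of all genes by less than 0.1. With the 5 lines as the unit, 0 of the receptors (6 in the report) and 80 genes (3614 in the report) were called in cHL lines against controls, a fit with fewer samples, and MET had an adjusted p of 0.107. Without L1236 the MST1R difference of the cHL lines was 0.999939 (adjusted p = 0.000321), under the size limit of 1 for a call, and 5 receptors were called, as without KM-H2. With Reh alone as control, DDR1 was under that limit in the cHL lines (0.90) and L428 (0.81). FGFR1 changed direction with Namalwa alone as control, to 1.78 in the cHL lines, 1.01 in L1236 and 1.06 in L428, with Reh alone in KM-H2 (-1.05), and in the cHL lines without L1236 (0.0054, uncalled). Uncalled values that changed sign were MST1R in KM-H2 with Namalwa alone (0.28), DDR1 in L1236 under quantile scaling (-0.038) and with Reh alone (-0.15), and PDGFRA in L1236 without the libraries low in PLCG2 (-0.0057). When each library was left out in turn, MST1R in KM-H2 ranged from -0.35 to 0.20, PDGFRA in L1236 from -0.0057 to 0.053, and after PMA PDGFRA ranged from -0.0087 to 0.014 and FGFR1 from -0.44 to 0.19. In the same repeats, the PMA comparison called 0 to 1 receptors and 2082 to 3363 genes (3265 in the report), with 2168 without Reh library 0 and 2082 without PMA-treated library 0. The call of FGFR1 in KM-H2 was also lost under quantile scaling (0.97). At a pseudocount of 0.1, the cHL lines exceeded the controls by 7.09 for MET, 5.78 for DDR2, 5.14 for EPHB1, 2.80 for MST1R, 2.54 for PDGFRA and 1.61 for DDR1 on the log2 scale, and Namalwa against Reh had 3 receptors called (1 in the report), since MET (-1.34) and MST1R (-2.86) were also lower, with 3312 of all genes called (2792 in the report). The cause of the other changes was not tested. The unknown depth limits what can be said of values under 1 FPKM.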
